A study of Mus musculus with 96 samples.

Results

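Striatal RNA of Q175 and WT mice was compared at 2 months of age, the youngest of the 3 ages sampled for this pair of genotypes. The comparison used the 16 of 96 libraries of the series that the labels describe as IP or Input, Q175 or WT, and 2 months. They fall into 4 groups of 4 libraries, namely Q175 IP, WT IP, Q175 Input and WT Input. All of these mice were C57BL/6J by strain label, and the striatum of Q175 and WT mice alike had been injected with an adeno-associated virus (AAV). The labels used here name neither the cargo of the virus nor the bait of the immunoprecipitation, and give no zygosity or sex. Input is RNA of the whole striatal sample, and IP is the RNA recovered by immunoprecipitation. No label ties an IP library to an Input library, and none says whether each library of a group is from its own mouse. The p-values therefore measure only the spread between these libraries.

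Huntington's disease is caused by an expanded CAG repeat in the first exon of the huntingtin gene, which lengthens a run of glutamines near the start of the protein. Q175 mice are knock-in mice with a long CAG repeat, set in exon 1 sequence of human origin at the mouse Htt locus, so the mutant gene stays under its own promoter in every cell type that uses it. Medium spiny neurons are the main neurons of the striatum and the cells most affected in the disease. Astrocytes, the support cells that clear glutamate and buffer potassium, also express Htt.

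The stretch that holds the repeat is given here as the mouse reference, which is the unmodified allele, to place the repeat in the transcript whose level is compared. It holds the first 90 coding bases of mouse Htt from GENCODE release M21 (chr5:34761907-34761996, GRCm38, which is mm10, plus strand, exon 1). Capitals mark the 7 glutamine codons, CAG or CAA, that begin at codon 18, and the tract spans chr5:34761958-34761978. Only gene totals were used, so neither repeat length nor the share of reads from the replaced stretch was measured.
Htt reference: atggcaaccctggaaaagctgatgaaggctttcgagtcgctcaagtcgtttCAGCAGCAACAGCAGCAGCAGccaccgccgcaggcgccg

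Depth was 42.8 to 50.2 M reads in Q175 IP and 48.6 to 56.6 M reads in WT IP, and 29.5 to 36.7 M reads in Q175 Input and 28.2 to 39.1 M reads in WT Input. Levels are counts scaled to library depth (CPM) with TMM scaling, and changes are log2 ratios of Q175 over WT ± SE from limma. A gene is called where its p, adjusted by Benjamini-Hochberg over all genes tested, is under 0.05. The IP was enriched in astrocyte RNA. All 36 astrocyte markers were called higher in IP than in Input in both genotypes, with a median log2 ratio of 2.63 in Q175 and 2.58 in WT. Of all genes, 38.1% were called higher in IP in Q175 and 38.8% in WT, and 40.3% were called lower in Q175 and 40.9% in WT. Medium spiny neuron genes were depleted, with all 41 measured called lower in IP in both genotypes and a median of -1.08 in Q175 and -1.09 in WT, and microglial genes had medians of -4.30 in Q175 and -4.73 in WT. Enrichment was not particular to astrocyte genes. Of 20 striatal interneuron genes 18 were called higher in IP in both genotypes, with medians of 1.62 in Q175 and 1.64 in WT. Of 15 ependymal and choroid genes 13 were, with medians of 1.94 and 2.08. Oligodendrocyte genes had medians of 0.09 in Q175 and -0.10 in WT, and pan-neuronal genes -0.17 and -0.10. The first principal component held 45.5% of the variance among IP libraries and 43.8% among Input libraries. Q175 and WT libraries overlapped along it in both, with scores of -13.3 to 10.1 in Q175 and -10.5 to 19.8 in WT for IP.

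Few genes differed at 2 months. In IP, 3 of 15038 genes were called (0.0199%), 2 higher and 1 lower in Q175, and in Input 1 of 15342 (0.00652%), which was higher. The IP count was 7 without Q175 IP replicate 3 and 1 without Q175 IP replicate 4 or WT IP replicate 1. At an unadjusted p under 0.05, IP had 749 genes (4.98%), of which 548 were higher and 201 lower in Q175, and Input had 524 (3.42%), of which 246 (1.6%) were higher and 278 lower. By the same test 574 genes (3.8%) were called in IP and 2154 (13.9%) in Input at 6 months, and 1059 (6.97%) in IP and 2855 (18.4%) in Input at 12 months. The called genes named here are Abhd1, called in both fractions, and Htt, called in IP.

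Htt, the gene that carries the repeat, was lower in every Q175 library than in every WT library of the same fraction. In IP its level was 259, 261, 246 and 250 CPM in Q175 and 342, 336, 330 and 325 CPM in WT. In Input it was 196, 197, 216 and 201 CPM in Q175 and 237, 260, 242 and 247 CPM in WT. The groups did not overlap in either fraction. The log2 change was -0.39 ± 0.04 in IP (limma adjusted p = 0.00959), which is a level 1.31-fold lower in Q175. In Input it was -0.28 ± 0.04, and this missed the threshold (limma adjusted p = 0.163, unadjusted p = 3.2e-05). The IP call was lost without either of 2 libraries. Its adjusted p was 0.0650 without Q175 IP replicate 4 and 0.0716 without WT IP replicate 1, with log2 changes of -0.39 and -0.38. It was also lost with the mean pan-neuronal or microglial level as a covariate, at limma adjusted p of 0.0602 and 0.193. At 12 months the change was -0.49 in IP and -0.41 in Input, both called (limma adjusted p of 0.00369 and 0.00342). The test of the difference between 12 and 2 months gave -0.10 ± 0.08 in IP and -0.12 ± 0.10 in Input (limma adjusted p of 0.60 and 0.52).

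Abhd1, an alpha/beta hydrolase domain gene, had the largest change of all genes called at 2 months in either fraction. In IP its level was 12.1, 15.3, 12.9 and 15.2 CPM in Q175 and 3.06, 2.59, 2.74 and 3.35 CPM in WT. In Input it was 7.51, 8.24, 7.91 and 8.96 CPM in Q175 and 4.13, 3.43, 4.87 and 4.04 CPM in WT. Every Q175 library stood above every WT library. The log2 change was 2.24 ± 0.11 in IP (4.72-fold, limma adjusted p = 3.68e-05) and 0.99 ± 0.12 in Input (1.99-fold, limma adjusted p = 0.0421). The IP change was the larger, with a genotype by RNA type term of 1.23 ± 0.17 (limma adjusted p = 0.0173), the only such term called among 15556 genes (0.00643%). That term was no longer called without Q175 Input replicate 1, Q175 IP replicate 2, Q175 IP replicate 4 or WT IP replicate 3. The Input call was likewise lost without any 1 of 7 of the 8 libraries, WT Input replicate 3 being the exception, with adjusted p values up to 0.316 and log2 changes of 0.91 to 1.08. Abhd1 lay at chr5:30950066-30955091 on the plus strand, 3.81 Mb from the start of Htt.

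Abhd1 shares 4239 bases, 84.3% of its length, with Preb on the other strand, a regulator of the prolactin promoter and of vesicle export. Strand use in the counting is not stated in the sources used here, so reads of the pair cannot be told apart with certainty. Preb was at 48.7, 52.4, 45.5 and 48.9 CPM in Q175 IP and 45.6, 45.5, 50.4 and 48.1 CPM in WT IP. These overlapped, and the log2 change was 0.04 ± 0.05 in IP and -0.01 ± 0.05 in Input, and neither was called. Abhd1 stayed higher in Q175 at 12 months, by 2.19 in IP and 0.94 in Input (limma adjusted p of 6.5e-05 and 0.00128).

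**Figure D1:**
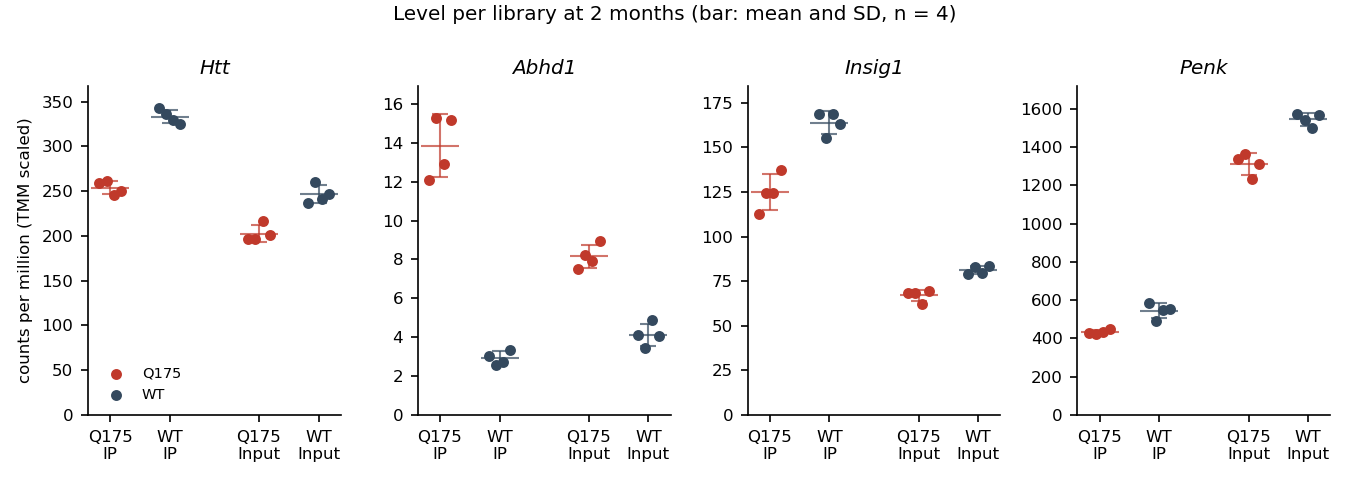
Levels in CPM of Htt, Abhd1, Insig1 and Penk in each library at 2 months, with Q175 left of WT for IP and then for Input. Points are libraries, and the bars give mean and SD of 4. In each of the 8 pairs of groups the Q175 and WT libraries do not overlap; Abhd1 lies higher in Q175 and the other genes lower.

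Abhd1 was 1 of several genes near Htt on chromosome 5 with small p-values. Within 10 Mb of the start of Htt, 15 of 144 tested genes (10.4%) had an unadjusted p under 0.05 in IP, against 4.98% of all genes, and 12 of 144 (8.33%) in Input, against 3.42%. Over 20 Mb from Htt on the same chromosome the shares were 4.22% of 687 genes in IP and 2.89% of 692 in Input. The side with lower coordinates held 96 of the 144 genes and 13 of the 15 in IP and 11 of the 12 in Input, while the other side, without Htt, had 1 of 47 in IP and 0 of 47 in Input. The changes ran in both directions, 8 higher and 7 lower in IP and 5 higher and 7 lower in Input. Leaving out any 1 library gave 13 to 17 such genes in IP and 11 to 16 in Input. The genotype of the DNA that flanks Htt is not given in the labels, and its part in these differences was not tested.

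Insig1, which holds the sterol sensor complex in the endoplasmic reticulum and so restrains cholesterol synthesis, lies 6.69 Mb from Htt. In IP it had 113, 124, 124 and 137 CPM in Q175 and 169, 155, 169 and 163 CPM in WT. In Input it had 68.3, 68.2, 62.3 and 69.2 CPM in Q175 and 79.1, 83.2, 79.6 and 83.8 CPM in WT. Neither fraction showed overlap. The log2 changes were -0.40 ± 0.06 and -0.28 ± 0.05, and neither was called at 2 months (limma adjusted p of 0.168 and 0.187). Both were called at 12 months, at -0.69 and -0.62 (limma adjusted p of 0.0146 and 0.00297).

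Dpysl5, a collapsin response mediator protein of growing axons, lies 4.05 Mb from Htt and stood just outside the threshold in Input. Its Input level was 25.3, 24.2, 23.3 and 24.7 CPM in Q175 and 17.4, 18.9, 18.3 and 17.8 CPM in WT, with no overlap. The log2 change was 0.43 ± 0.06 (limma adjusted p = 0.0571), and 0.18 ± 0.06 in IP, where the groups overlapped. Drc1, a part of the dynein regulatory complex of cilia, showed the opposite split between fractions. Its IP level was 23.8, 21.8, 26.7 and 25.0 CPM in Q175 and 16.1, 18.4, 17.9 and 20.1 CPM in WT, a log2 change of 0.42 ± 0.08 (limma adjusted p = 0.288), while its Input change was -0.04 ± 0.08. At 12 months Drc1 was called in IP at 0.43 (limma adjusted p = 0.00775).

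The same neighbours were read in the libraries of 6 and 12 months, none of which is in the 2-month groups. Of the 12 Input genes, 12 had the same sign at 6 months and 11 at 12 months, and the 4 and 3 that were called at those ages were all among them. Of the 15 IP genes, 11 had the same sign at 6 months and 8 at 12 months, and the 2 and 4 called ones were again all of the same sign. Of all genes tested, 13.9% in Input and 3.8% in IP were called at 6 months, and 18.4% and 6.97% at 12 months. Htt itself is in both sets of neighbours. Over all genes with an unadjusted p under 0.05 at 2 months, the same sign was seen for 76.7% at 6 months and 73.9% at 12 months in Input, and for 67.3% and 66.1% in IP. Tacc3, a spindle protein with a gene next to Fgfr3, did not keep its direction. Its IP log2 change was -0.37 ± 0.10 at 2 months (unadjusted p = 0.00421) and 0.16 at 12 months.

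**Figure D2:**
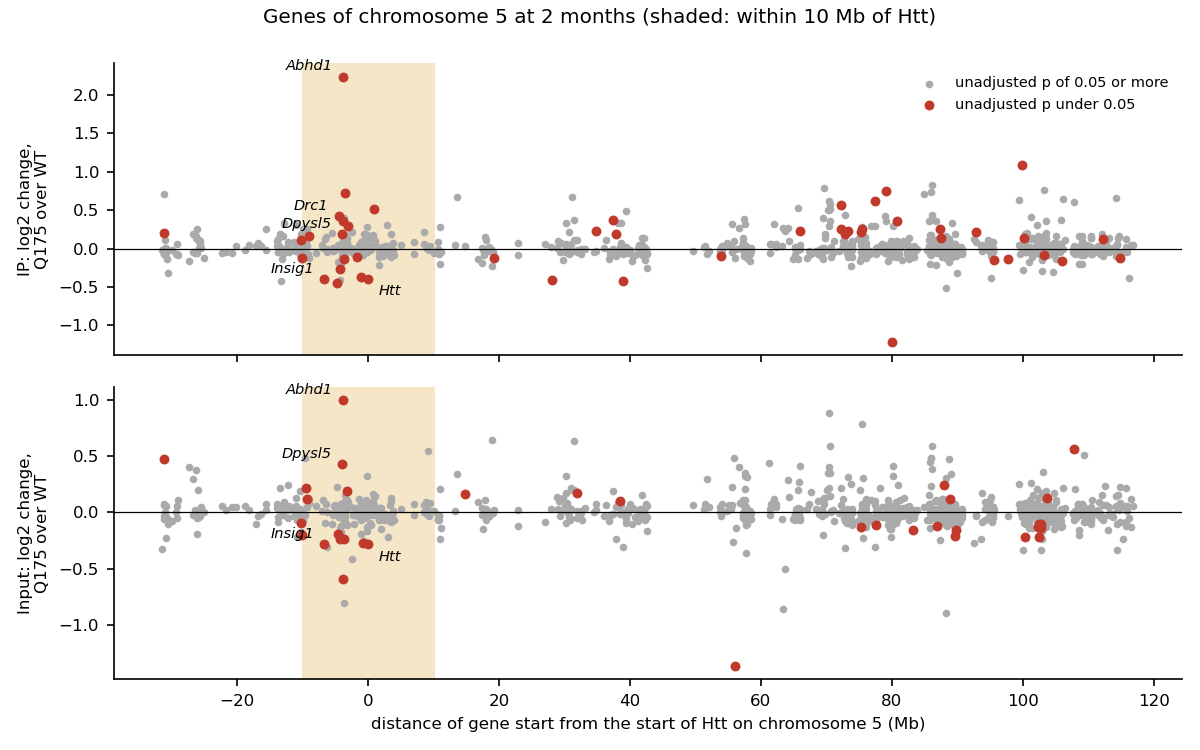
Log2 change of Q175 over WT at 2 months for the tested genes of chromosome 5, IP above and Input below, against the distance in Mb of each gene start from the start of Htt. Red points have an unadjusted p under 0.05, and the shaded 10 Mb on either side hold 15 of them in IP and 12 in Input, nearly all on the low-coordinate side or Htt itself.

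Genes of medium spiny neurons were slightly lower in Q175 as a group, though none was called. This list, like the others, was written with earlier results of these data known, so its shares are a description and not independent support. In Input, 34 of 41 measured members lay below 0, with a median log2 change of -0.08 against 0.00 for all genes, and 17 (41.5%) were lower at an unadjusted p under 0.05 against 1.81% of all genes, with 1 higher. In IP, 37 of 41 lay below 0, with a median of -0.11, and 11 (26.8%) were lower at that p against 1.34% of all genes, with 1 higher. In bulk RNA, fewer cells of a type and less RNA per cell cannot be told apart. The summed Input level of the list was 32516, 33287, 32046 and 32737 CPM in Q175 and 36495, 35704, 34209.5 and 33873 CPM in WT, with no overlap. In IP it was 12431, 12794, 12801 and 12116 CPM in Q175 and 14630, 12059, 14479 and 14390 CPM in WT, where WT replicate 2 lay below all Q175 libraries. Without that library 28 members were lower at an unadjusted p under 0.05 in IP. The count was 3 without WT IP replicate 1, 4 without Q175 IP replicate 4 or WT IP replicate 3, 6 without Q175 IP replicate 1 and 7 without WT IP replicate 4. In Input the count was 12 to 21 over the same exercise.

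Penk, which encodes the enkephalin precursor of the indirect-pathway neurons, had the smallest p of the list in both fractions. In Input it was at 1336, 1365, 1233 and 1313 CPM in Q175 and 1571, 1545, 1499 and 1570 CPM in WT. In IP it was at 431, 422, 433 and 448 CPM in Q175 and 588, 492, 549 and 553 CPM in WT. The groups did not overlap in either. The log2 change was -0.24 ± 0.04 in Input and -0.33 ± 0.06 in IP, and neither was called (limma adjusted p of 0.324 and 0.19).

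Pde10a, the striatal cyclic nucleotide phosphodiesterase, had log2 changes of -0.15 ± 0.05 in Input and -0.28 ± 0.06 in IP. Adora2a, the adenosine receptor of the indirect pathway, had -0.19 ± 0.05 and -0.20 ± 0.06. Ppp1r1b, which encodes the dopamine-regulated phosphatase inhibitor DARPP-32, had -0.20 ± 0.05 and -0.20 ± 0.09. These 3 genes had unadjusted p values of 0.00118 to 0.0445, and none was called. Other members with an unadjusted p under 0.05 in Input included the sodium channel subunit Scn4b (-0.14 ± 0.06), the adenylyl cyclase Adcy5 (-0.13 ± 0.05), the cannabinoid receptor Cnr1 (-0.19 ± 0.05) and the phosphoprotein genes Arpp21 (-0.13 ± 0.04) and Arpp19 (-0.14 ± 0.05). The dopamine receptor Drd2 had -0.04 ± 0.06 and the tachykinin gene Tac1 0.00 ± 0.06 in Input, neither with an unadjusted p under 0.05. The member that ran the other way in IP was Actn2, an actin cross-linker, at 0.35 ± 0.12.

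Potassium and sodium channel genes had no lean as a list in Input, with a median of -0.00 and 16 of 31 below 0. At an unadjusted p under 0.05, 6 (19.4%) were lower there against 1.81% of all genes, and 2 (6.45%) were higher against 1.6%. In IP 1 (3.23%) was lower against 1.34% of all genes, although 24 of the 31 lay below 0 with a median of -0.05. The summed IP level was 5188 to 5516 CPM in Q175 and 5494 to 5816 CPM in WT, and the groups overlapped. Scn4b and Kcnip2 are also in the medium spiny neuron list. The lower ones included the potassium channel subunits Kcnab1 (-0.15 ± 0.04) and Kcnh4 (-0.18 ± 0.06), and Scn3b was higher (0.14 ± 0.04). The pan-neuronal list had a median of -0.01 in Input, with 2 of 28 lower at that p, and -0.05 in IP, with 0 of 28, although 26 of the 28 lay below 0 in IP. Lists not particular to neurons leaned as well. Of 33 oxidative phosphorylation genes 30 lay below 0 in Input, with a median of -0.04. At that p 2 (6.06%) were lower there, against 1.81% of all genes. The median ran from -0.08 to -0.01 when 1 library was left out. Q175 Input replicate 4, at a median log2 deviation of 0.08, lay above every WT Input library for this list. Of 33 ribosomal protein genes 25 lay below 0 in Input and 28 above 0 in IP, with medians of -0.05 and 0.06. The genotypes overlapped in both. In IP, WT replicate 2 stood at a median log2 deviation of -0.16 and the Q175 libraries at 0.02 to 0.03. WT IP replicates 1 and 4 lay above all of these, at 0.05 and 0.04. The IP median ran from 0.02 to 0.09 when 1 library was left out. Of the 24 immediate early genes, 4 (16.7%) were lower at that p in Input against 1.81% of all genes, among them the activity-induced factor Egr3 at -0.16 ± 0.06, and 0 in IP. The median of that list was -0.06 in Input, where it ran from -0.15 without WT Input replicate 4 to 0.05 without WT Input replicate 2. In IP it was 0.07, with 17 of 24 above 0, and ran from -0.10 without WT IP replicate 2 to 0.24 without WT IP replicate 1.

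**Figure D3:**
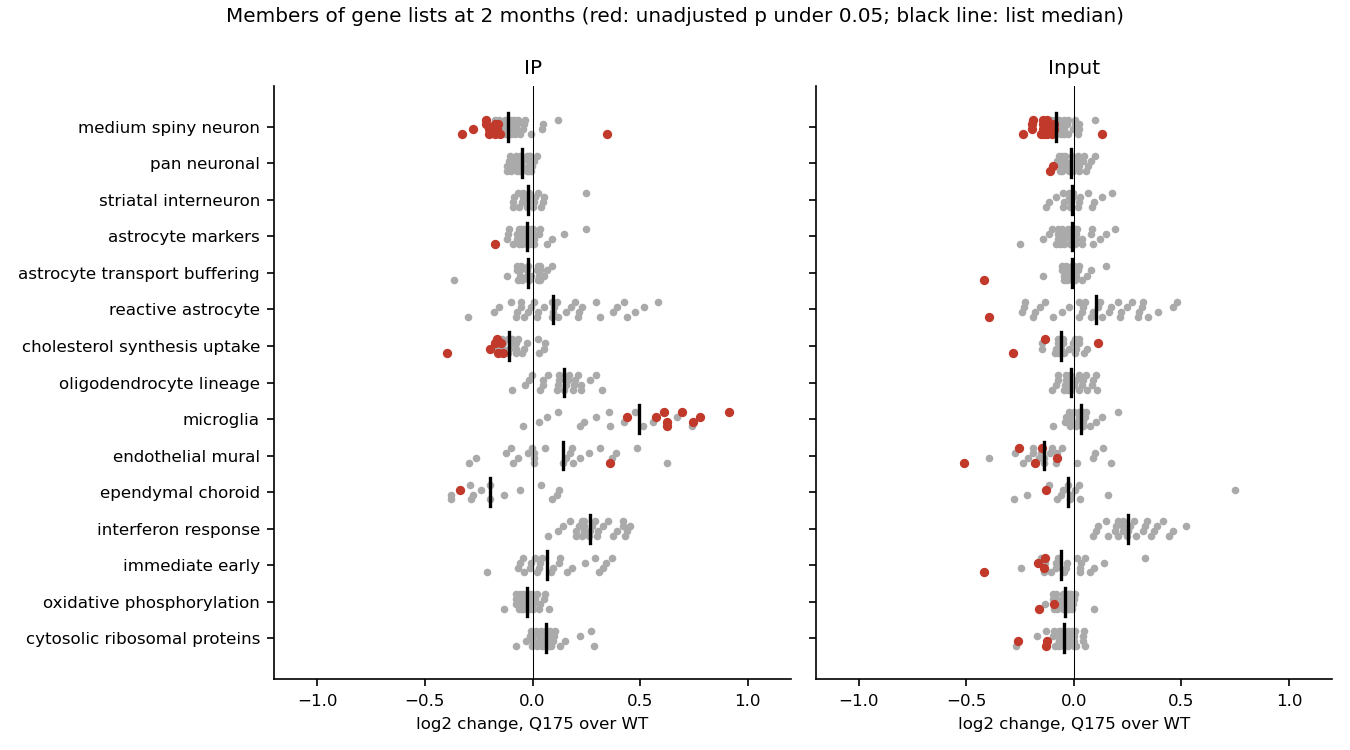
Log2 changes of Q175 over WT at 2 months for the measured members of 15 gene lists, IP on the left and Input on the right. Each point is a gene, red at an unadjusted p under 0.05, and the black line is the list median. The medium spiny neuron median lies below 0 in both fractions, and the microglia median lies at 0.49 in IP and 0.03 in Input.

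Astrocyte markers, which were enriched by the IP, had medians near 0. Of 36 astrocyte markers 0 were called in IP, where 0.0199% of all genes were called, so the count says little. At an unadjusted p under 0.05 there was 1 (2.78%) against 4.98% of all genes, the Hedgehog pathway factor Gli2 at -0.17 ± 0.07. In Input 0 of 36 had an unadjusted p under 0.05. The list median was -0.02 in IP and -0.01 in Input. The summed IP level was 62376, 69586, 67602 and 68199 CPM in Q175 and 63365, 67051, 75605 and 73784 CPM in WT, and the groups overlapped. The glutamate transporter Slc1a2 had a log2 change of -0.12 ± 0.14 in IP, the glutamate transporter Slc1a3 -0.07 ± 0.06, the potassium channel Kcnj10 -0.05 ± 0.10 and the water channel Aqp4 -0.06 ± 0.07. Gfap, the intermediate filament gene used to mark reactive astrocytes, had 0.09 ± 0.27 in IP, with a 95% interval of -0.50 to 0.69, which includes an increase of 1.5-fold and excludes a decrease of that size. For 32 of the 36 markers in IP and 33 in Input the 95% interval excluded a change of 1.5-fold or more. A separate list of reactive astrocyte genes was less tightly bounded, with 1.5-fold excluded for 14 of 36 measured in IP and 12 in Input. Its median was 0.10 in both, with 25 of 36 above 0 in each. At an unadjusted p under 0.05 it had 0 in IP, and 1 lower (2.78%) in Input against 1.81% of all genes. The IP median ran from -0.05 to 0.24 when 1 library was left out.

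Genes of cholesterol synthesis, which astrocytes largely carry out in the adult brain, leaned lower in IP. Of 27 synthesis and uptake genes, 23 lay below 0 in IP with a median of -0.11, and 7 (25.9%) were lower at an unadjusted p under 0.05 against 1.34% of all genes. In Input 19 of 27 lay below 0, with a median of -0.06. At that p 2 (7.41%) were lower there against 1.81% of all genes, and 1 (3.7%) was higher against 1.6%. Beside Insig1 the IP genes were Hmgcs1 (-0.16 ± 0.07), which makes HMG-CoA, Mvd (-0.20 ± 0.07), Sqle (-0.14 ± 0.06), Msmo1 (-0.18 ± 0.05) and Sc5d (-0.14 ± 0.05) of the later steps, and Stard4 (-0.16 ± 0.07), a sterol carrier. None was called, and the count was 2 without Q175 IP replicate 3 or WT IP replicate 3 and 4 without Q175 IP replicate 4 or WT IP replicate 1. At 6 months Hmgcs1, Mvd, Sqle, Msmo1, Sc5d and Stard4 had positive IP changes of 0.03 to 0.17, and at 12 months negative ones of -0.53 to -0.14, none of them called.

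Microglial genes were at trace levels in IP and leaned higher in Q175. Of 24 genes 23 lay above 0, with a median of 0.49, and 9 (37.5%) were higher at an unadjusted p under 0.05 against 3.64% of all genes. Trem2, a receptor for lipids and debris, was at 1.11, 0.861, 1.02 and 0.776 CPM in Q175 and 0.478, 0.476, 0.468 and 0.552 CPM in WT, a log2 change of 0.91 ± 0.19 (limma adjusted p = 0.342). Csf1r, the receptor that microglia need to survive, was at 6.70, 9.51, 6.06 and 6.76 CPM in Q175 and 5.84, 4.06, 3.85 and 5.26 CPM in WT, with 0.61 ± 0.17 (limma adjusted p = 0.696). Both were without overlap in IP. In Input, where these genes were far more abundant, Trem2 had 0.04 ± 0.09 and Csf1r 0.04 ± 0.07, and 0 of 24 had an unadjusted p under 0.05. The summed level was 109, 109.5, 102 and 96.5 CPM in Q175 IP and 101, 83.1, 77.2 and 82.6 CPM in WT IP, and 1409 to 1738 CPM in Q175 Input and 1269 to 1890 CPM in WT Input. The count of higher genes in IP was 5 without WT IP replicate 3 and 16 without WT IP replicate 1. With the mean microglial level as a covariate, the IP genes with an unadjusted p under 0.05 were 317, against 749 without it, and the log2 changes of Abhd1 and Htt were 2.20 and -0.44. Most WT IP libraries lay below every Q175 IP library in summed microglial level. The covariate therefore largely follows genotype, and the lower count cannot be tied to microglial RNA.

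Interferon genes differed more between libraries of a genotype than between genotypes. All 27 measured members lay above 0 in both fractions, with medians of 0.27 in IP and 0.25 in Input, yet 0 had an unadjusted p under 0.05 in either. The summed IP level was 6266, 2251, 4116 and 3254 CPM in Q175 and 4997, 4404, 3280 and 1192 CPM in WT. In Input it was 954, 1098, 1557 and 674 CPM in Q175 and 351, 705, 1486 and 1360 CPM in WT. The groups overlapped over most of their range, and the median change was -0.12 without WT IP replicate 4 and 0.46 without WT IP replicate 1. The Input median was -0.09 without WT Input replicate 1 and 0.50 without WT Input replicate 4. Oligodendrocyte genes varied in the same way in IP, from 4215 to 6903 CPM in Q175 and from 3982 to 7907 CPM in WT. Of the 25, 21 lay above 0 in IP, and 0 had an unadjusted p under 0.05. Their median of 0.15 there ran from 0.00 to 0.36 when 1 library was left out. Endothelial and mural genes had a median of -0.14 in Input, with 5 of 25 (20.0%) lower at that p against 1.81% of all genes, among them the tight junction gene Cldn5 at -0.51 ± 0.14. In IP the median was 0.14, with 1 of 25 (4.0%) higher against 3.64%.

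**Figure D4:**
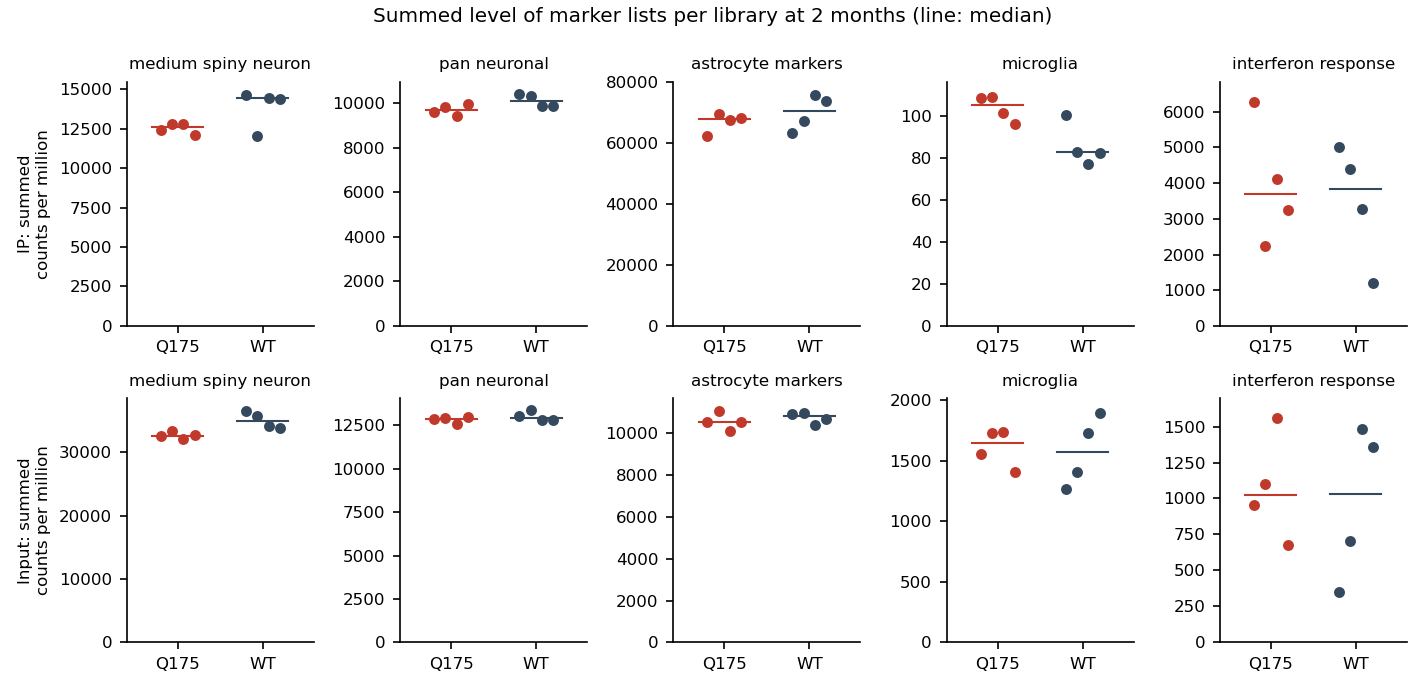
Summed CPM of 5 gene lists in each library at 2 months, IP above and Input below, Q175 left of WT, with the line at the median of 4 libraries. Medium spiny neuron sums do not overlap between genotypes in Input, WT replicate 2 is the low WT point in IP, and interferon sums span 674 to 1557 CPM in Q175 Input and 351 to 1486 CPM in WT Input.

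Genes outside these lists were taken where the unadjusted p was under 0.01, the genotypes did not overlap and the mean level reached 5 CPM. Dst, a giant linker of the cytoskeleton, was at 947, 1023, 874 and 949 CPM in Q175 IP and 672, 700, 677 and 748 CPM in WT IP. Its Input level was 572, 602, 546 and 586 CPM in Q175 and 488, 522, 464 and 455 CPM in WT. Its log2 change was 0.44 ± 0.06 in IP (limma adjusted p = 0.0764) and 0.26 ± 0.05 in Input (limma adjusted p = 0.417). Its adjusted p in IP was 0.0415 without Q175 IP replicate 3. The chromatin remodeller Atrx had 0.57 ± 0.09 in IP and 0.20 ± 0.05 in Input, and the transcription elongation kinase Cdk12 0.54 ± 0.09 and 0.21 ± 0.05, both with no overlap in either fraction and neither called. In IP the highest changes after Abhd1, clone-named transcripts ending in Rik left out, were those of Clk1, a splicing factor kinase (0.70 ± 0.15), Trio, a guanine nucleotide exchange factor (0.69 ± 0.14), and Ftx, a noncoding RNA of the X inactivation centre (0.64 ± 0.15). In Input they were those of Dpysl5, of the scaffold Akap12 (0.36 ± 0.09) and of Sphkap, another kinase anchor (0.30 ± 0.06).

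On the lower side Plk5, a kinase-like gene of neurons and glia, was lower in every Q175 library in both fractions. It was at 23.9, 20.9, 19.6 and 21.1 CPM in Q175 Input and 26.9, 31.1, 27.5 and 27.2 CPM in WT Input, a log2 change of -0.40 ± 0.07 (limma adjusted p = 0.351). In IP the change was -0.38 ± 0.09. At 12 months Plk5 was called in both, at -1.14 in Input and -1.45 in IP (limma adjusted p of 3.24e-05 and 0.0133). Other low genes in Input were Tm4sf1 (-0.39 ± 0.10), a membrane protein of endothelium, Acta1 (-0.39 ± 0.09), a muscle actin, and the growth factor Fgf3 (-0.37 ± 0.11), which was called at 12 months at -1.43.

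In Input the higher and lower genes differed in transcript length. The median length of the longest annotated transcript was 5.49 kb for the 232 higher genes at an unadjusted p under 0.05 with a length and 2.53 kb for the 266 lower ones, against 3.39 kb for all genes. In IP these medians were 3.77, 3.78 and 3.42 kb. The median log2 deviation of the longest quartile of genes was 0.01 to 0.02 in the 4 Q175 Input libraries and -0.03 to 0.01 in the 4 WT Input libraries, and that of the shortest quartile was -0.03 to 0.01 in Q175 and -0.00 to 0.05 in WT. RNA integrity values are not in the labels, and the part of transcript length in the Input differences was not tested.

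Both fractions pointed the same way for a small number of genes. Of 14864 genes tested in both, 320 were higher without overlap in IP and 208 in Input, and 15 were in both, which is 4.69% of the IP genes and 7.21% of the Input genes. On the lower side 165 and 163 genes shared 9, or 5.46% and 5.52%. These shares can be read against 1.39% of all tested genes higher without overlap in Input and 1.08% lower, and 2.14% higher and 1.1% lower in IP. Without overlap but in opposite directions were 1 gene higher in IP and 3 genes lower in IP. The labels do not say whether IP and Input come from the same mice, so agreement between them is not independent support. Of the genes alike in both, 16 also had an unadjusted p under 0.05 and a mean of 5 CPM or more in both fractions, among them Abhd1, Htt, Insig1, Penk, Dst, Atrx, Cdk12, Ppp1r9a, Plk5 and Mga. Ppp1r9a, which encodes the synaptic actin binder neurabin, had opposite signs at the ages. Its log2 change at 2 months was 0.48 ± 0.12 in IP and 0.21 ± 0.05 in Input, and at 12 months -0.49 in IP and -0.45 in Input. The age terms of Ppp1r9a were -0.98 ± 0.21 in IP and -0.65 ± 0.10 in Input (limma adjusted p of 0.0223 and 0.000314). At 12 months only its Input change was called (limma adjusted p = 0.00282).

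Genes called at 12 months (4.77% lower and 2.2% higher of all tested in IP, 11.7% and 6.63% in Input) had small changes at 2 months, mostly of the same sign. Of 724 called lower in IP at 12 months and measured at 2 months, 68.4% lay below 0 at 2 months against 50.5% of all genes, with a median log2 change of -0.04 against -0.60 at 12 months. Of these, 52 (7.18%) were lower at an unadjusted p under 0.05, against 1.34% of all genes, and 12 were higher. Of 1818 such genes in Input, 65.5% lay below 0 with a median of -0.02, and 139 (7.65%) were lower at that p against 1.81% of all genes, with 16 higher. Of genes called higher at 12 months, 66.3% of 317 in IP and 64.7% of 1004 in Input lay above 0, with medians of 0.04 and 0.03. At that p 25 (7.89%) were higher in IP against 3.64% of all genes, and 0 lower. In Input 40 (3.98%) were higher against 1.6%, and 2 lower. The ages share no library. The median of the genes lower in IP at 12 months was -0.08 without WT IP replicate 2 and -0.02 without WT IP replicate 1, and WT IP replicate 2 lay below every Q175 library for these genes, at a median log2 deviation of -0.10. That of the genes higher in IP was 0.07 without WT IP replicate 2 and 0.02 without Q175 IP replicate 3 or WT IP replicate 4. For the genes lower in Input it was -0.04 without WT Input replicate 4.

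Genes with the largest later decreases had small changes at 2 months. Among 129 IP genes at least 2-fold lower at 12 months, the median change was -0.09 at 2 months and -1.26 at 12 months. Of the genes named next, Ryr1, Scn4b and Pde10a are in the medium spiny neuron list, whose 41 measured genes were all called lower in IP than in Input. The cell source of their RNA in IP was not tested. Ryr1, the calcium release channel, was at 62.9 ± 11.4 CPM in Q175 IP and 57.7 ± 7.77 CPM in WT IP (SD, n = 4 each), a log2 change of 0.12 ± 0.13 at 2 months against -2.73 at 12 months. Scn4b had -0.22 ± 0.08 against -2.16, the apoptosis activator Hrk -0.11 ± 0.11 against -2.12, the extracellular matrix gene Abi3bp -0.22 ± 0.15 against -2.34 and Pde10a -0.28 ± 0.06 against -1.49. For each of these 5 genes the test of the difference between ages was called in IP (limma adjusted p of 2.61e-07 to 0.00419). Over all genes, that test called 380 of 15296 in IP (2.48%), 79 of them with a more positive change at 12 months, and 1382 of 15595 in Input (8.86%), 342 of them more positive. The IP count was 203 to 230 without any 1 of Q175 replicate 2 or WT replicate 2 at 2 months, and Q175 replicate 2, WT replicate 2 or WT replicate 4 at 12 months. With the deposited scaling the IP count was 371, with 117 more positive, and the Input count 1787, with 1081 more positive. On the higher side Dsp, a desmosome gene, had a log2 change of -0.46 ± 0.30 in IP at 2 months and 2.62 at 12 months, and Sfmbt2, a chromatin repressor, 0.09 ± 0.08 and 1.03. In Input the change of Sfmbt2 at 2 months was larger, at 0.40, with an unadjusted p under 0.05, and it was not called.

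The sizes seen at 12 months were set against the 95% intervals at 2 months. The interval lay short of the gene's own 12-month value for 716 of 724 genes called lower in IP (98.9%) and 1734 of 1818 in Input (95.4%), and for 283 of 317 called higher in IP (89.3%) and 876 of 1004 in Input (87.3%). This takes the 12-month value as exact, in genes chosen for being called then. The test of the difference between ages was called in the same direction for 280 of the lower and 65 of the higher genes in IP, and for 1028 of the lower and 304 of the higher genes in Input. Over all genes, a change of 1.5-fold or more was excluded for 12595 of 15038 in IP (83.8%) and 12784 of 15342 in Input (83.3%). A change of 2-fold or more was excluded for 93.7% in IP and 93.9% in Input. The median half-width of the interval was 0.17 log2 units in IP and 0.16 in Input, or 1.13-fold and 1.12-fold.

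These limits depended on level. In the lowest quartile of genes by mean level, with medians of 1.46 CPM in IP and 1.61 CPM in Input, 1.5-fold was excluded for 44.7% in IP and 38.2% in Input. In the next quartile it was excluded for 95.2% and 96.5%, and in the top quartile for 97.7% and 99.6%. Among the 41 medium spiny neuron genes 1.5-fold was excluded for 40 in IP and 41 in Input, and among the 27 cholesterol genes for all 27 in both. Among the 24 microglial genes it was excluded for 4 in IP and 22 in Input, and among the 27 interferon genes for 0 and 2, so that for these lists in IP the data set hardly any limit of that size. In the list of 21 modifiers of CAG repeat instability, mostly DNA mismatch repair genes, 0 had an unadjusted p under 0.05 in either fraction. With 4.98% of all genes at that p in IP and 3.42% in Input, this count says little. In IP 2 were lower and 0 higher without overlap, against 1.1% and 2.14% of all genes, and in Input 0 either way. A change of 1.5-fold was excluded for 20 in both. Msh3 had a log2 change of -0.01 ± 0.05 in IP and -0.04 ± 0.05 in Input.

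**Figure D5:**
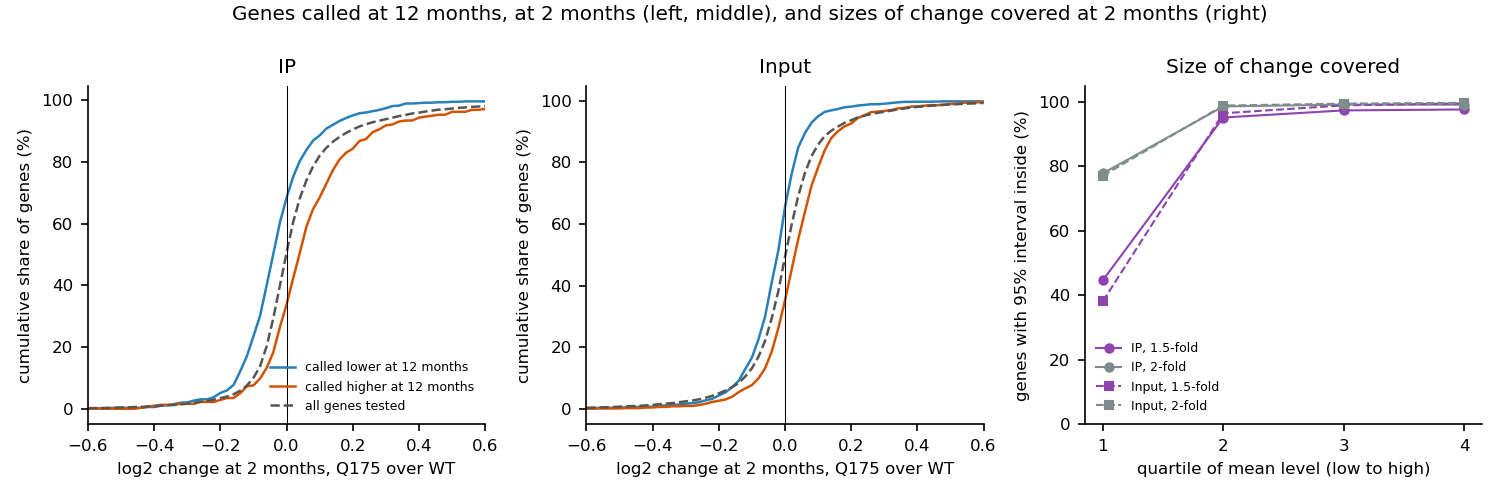
Left and middle, cumulative share of genes against their log2 change at 2 months, for genes called lower or higher at 12 months and for all genes tested, in IP and Input. Right, share of genes whose 95% interval at 2 months lies inside 1.5-fold or 2-fold, by quartile of mean level. The lower curve sits left and the higher curve right of all genes by less than 0.1 log2 units at the median, and 1.5-fold is covered for 44.7% of IP genes in the lowest quartile and 97.7% in the top quartile.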

How the data were processed

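The authors deposited log2 CPM per gene and library, 15652 genes each. The tools listed in the submitters' processing notes are STAR, HTSeq, edgeR and limma, with the genome build mm10; versions and strand use are not given in the sources used here. From the deposited log2 values, whole reads were recovered within 0.01 for 100% of values with a prior of 0.25 reads. Log2 CPM was computed again with TMM scaling, trimming 30% of M and 5% of A values. Genes needed 10 reads at median depth in at least 4 libraries and 15 in total. Each comparison was fitted alone with limma 3.58.1 (intensity trend, R 4.3.3), two-sided, with Benjamini-Hochberg adjustment over all genes. Age and RNA type were tested as interaction terms. Coordinates came from GENCODE M21 by symbol, which matched 95.4% of tested symbols. The fit was tested on simulated data. Replicates were numbered in accession order, and pairs of libraries differed by 6.99 to 66.1 in chi-square per gene, so none was counted as a duplicate.

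Members and the 26 gene lists were chosen with earlier results of these data known. Named genes were Htt, Abhd1, called genes, then per fraction the 10 highest and 10 lowest changes at an unadjusted p under 0.01 with at least 5 CPM and no overlap, the 10 lowest and 10 highest at 12 months in IP, genes within 10 Mb of Htt, genes alike in both fractions, and 4 members per list. Clone-named and Gm transcripts were passed over, some of these genes are not described, and 1 called gene is not reported here. Alternatives were another scaling, prior, filter, weighting, covariates, 1 fit over ages, and leaving out each library.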

Additional observations from a re-analysis of the deposited data

Results flagged for a closer look

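In 8 of 228 groups of 4 libraries checked, 1 library stood apart from the other 3 by Dixon's ratio, where chance gives about 1 in 20. For single genes these were Insig1 in Q175 Input replicate 3 (62.3 CPM), Plk5 in WT Input replicate 2 (31.1 CPM), Pde10a in Q175 IP replicate 3 (1324 CPM), Tm4sf1 in Q175 Input replicate 4 (6.92 CPM) and Ttn in Q175 IP replicate 2 (8.72 CPM). For summed lists they were medium spiny neuron genes in WT IP replicate 2 (12059 CPM, the other WT IP libraries 14390 to 14630), striatal interneuron genes in Q175 IP replicate 3 (1695 CPM) and unfolded protein response genes in Q175 IP replicate 4 (1742 CPM).

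Abhd1 changed more in IP than in Input, with a genotype by RNA type term of 1.23. The change differed between 12 and 2 months for 380 genes in IP and 1382 in Input. Among genes with an unadjusted p under 0.05 at 2 months, the age terms in IP (12 minus 2 months, log2) included -1.94 for Scn4b, -1.41 for Clspn, -1.38 for Penk, -1.21 for Pde10a, -0.98 for Ppp1r9a, -0.81 for Myh7b, -0.44 for Caln1 and 0.54 for Tacc3. In Input they included -1.68 for Scn4b, -1.197 for Rgs14, -1.12 for Penk, -1.08 for Pde10a, -1.06 for Fgf3, -0.74 for Plk5, -0.65 for Ppp1r9a, -0.57 for Myh7b, -0.50 for St8sia3, -0.27 for Mga and 1.74 for Sfmbt2.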

How the results depend on the processing

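Abhd1 in IP stayed called in all 19 alternatives, with log2 changes of 2.18 to 2.30. Called genes in IP went to 1 with the pan-neuronal or the microglia covariate, to 8 with all ages in 1 fit, and to between 1 and 7 without 1 library. The 1 called gene in Input went to 0 with the deposited scaling, the pan-neuronal or the astrocyte covariate, to 2 with robust variances, and to between 0 and 1 without 1 library. The genotype by RNA type count went to 0 with voom weights and to between 0 and 1 without 1 library, and the genotype by age count in IP to between 203 and 495 without 1 library. The Input median of genes higher at 12 months moved to 0.045 when those were chosen at an adjusted p under 0.01. The cause of these shifts was not tested. Single genes were followed where their unadjusted p at 2 months was under 0.05, and only Ttn in IP reversed, at -0.064 with the microglia covariate. Counts of genes excluding 1.5-fold stayed within 11248 to 12674 in IP and 11903 to 13107 in Input, 99% intervals included. Counts near Htt stayed within 13 to 18 in IP and 9 to 16 in Input with windows of 5 and 20 Mb or without 1 library, and leaving out libraries for these and the list counts was chosen after seeing the data. No paired analysis was possible because no label ties an IP library to an Input library, or a Q175 library to a WT library. With 4 libraries a group and counting noise at low levels, changes under 1.13-fold lay within the median IP interval.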
